A study of Mus musculus with 8 samples.

Results

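Of the 45037 non-control probe sets on the array, 12 that stand for 9 genes of glycolysis and of the response to low oxygen are described here: the glucose transporter Slc2a1, the glycolytic enzymes Pfkl, Aldoa, Tpi1, Pgk1 and Pkm, the lactate dehydrogenase subunit Ldha, the pyruvate dehydrogenase kinase Pdk1 and the mitophagy receptor Bnip3. They were chosen by gene with the genotype differences in these signals known, and Pfkl and Pdk1 also because the authors' deposited table of differing probe sets lists them. The differences between genotypes are therefore a description, and no test of them is offered as support. The deposited files pair only the probe sets of Pfkl and Pdk1 with a gene, and the other gene names came with the selection. Each probe set reads a short stretch of a transcript, so levels of different probe sets are not compared, and the 3 probe sets of Aldoa and the 2 of Slc2a1 share their target and are not replicates.

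Glycolysis splits glucose into pyruvate in the cytosol and yields ATP without oxygen, and pyruvate is then either reduced to lactate or burned in mitochondria. When oxygen is low, the transcription factor HIF-1 is stabilised and raises the transcription of glucose transporters, of most glycolytic enzymes, of the kinase that keeps pyruvate out of mitochondria and of factors that remove mitochondria. In the early neural tube this programme is of interest because blood vessels are only beginning to enter the tissue, and VEGF-A, which drives their ingrowth, is itself a HIF-1 target.

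VEGF120 mouse embryos gave 4 arrays of microdissected forebrain at E9.5, and wild type embryos of the same age gave 4 more, all on a C57Bl/6 background. VEGF120 embryos carry a knock-in cDNA in the VEGF-A gene and make only its VEGF120 isoform, so VEGF164 and the other isoforms are missing. The allele is present in every tissue of the embryo from the start of development, not in forebrain alone. The labels do not say whether an array stands for 1 embryo or a pool, so the spread between arrays may be technical in part.

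The arrays had been scaled to a common trimmed mean, yet their median signal ran from 62.3 to 68.5 in VEGF120 and from 56.1 to 59.6 in wild type, without overlap. The 3′ to 5′ signal ratio of Gapdh, a measure of RNA integrity, lay between −0.33 and −0.04 (log2) in VEGF120 and between −0.37 and −0.29 in wild type, and that of β-actin between 0.35 and 0.69 in VEGF120 and between 0.30 and 0.43 in wild type; VEGF120 replicate 4 had the highest value of both. Of the 10 forebrain neuroepithelium markers listed only Sp8 has a named probe set here, at a signal of 209 to 349 in VEGF120 and 382 to 484 in wild type. Its name comes from the deposited table of differing probe sets, which lists it as lower in VEGF120. A gene selected for differing between the genotypes cannot check the tissue label, so the label was not checked. With 4 arrays a genotype, precision is limited throughout.

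The promoters of the members were searched for the letters of a HIF-1 core. HIF-1 binds a short core, searched here as ACGTG and GCGTG on both strands, where CACGT and CACGC are the same letters read from the other strand and 1 stretch CACGTG counts as 2 matches. RefSeq windows of 300 bases (GRCm38.p6, 250 before to 50 after a transcription start) were found for all 9 genes, 14 windows in all. Of the first windows of the 9 genes 6 held a core, and of all 14 windows 10 did, where 2 windows of Aldoa overlap and hold 1 match each, against 43.8% of 32817 windows of the same length over all genes, and 19.6% of all windows held ACGTG and 32.4% GCGTG. The window of Bnip3 held 5 matches and the first window of Ldha 7, while the single window of Tpi1 held none. A match is a run of letters only and says nothing of binding. The members were chosen as genes of glycolysis and of the response to low oxygen, so nothing is read from their shares beside those of all windows. Shown are the first windows of the 3 members with the largest differences, Bnip3, Pfkl and Pdk1, and of Slc2a1, whose differences lay within the spread between arrays; matches are in capitals.

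Bnip3, chr7:138909457-138909756, minus strand: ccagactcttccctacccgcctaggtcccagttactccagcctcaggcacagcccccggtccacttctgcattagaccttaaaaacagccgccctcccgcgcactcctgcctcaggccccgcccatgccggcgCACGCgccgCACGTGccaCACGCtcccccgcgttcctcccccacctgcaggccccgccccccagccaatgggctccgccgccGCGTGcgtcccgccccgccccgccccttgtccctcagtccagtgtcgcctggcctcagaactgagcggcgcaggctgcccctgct
Pfkl, chr10:78009758-78010057, minus strand: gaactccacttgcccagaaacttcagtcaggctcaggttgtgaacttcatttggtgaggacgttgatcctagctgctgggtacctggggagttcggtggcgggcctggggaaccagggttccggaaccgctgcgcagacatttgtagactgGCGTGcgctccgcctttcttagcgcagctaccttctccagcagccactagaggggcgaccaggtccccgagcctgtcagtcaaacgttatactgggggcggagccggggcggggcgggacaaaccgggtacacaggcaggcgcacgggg
Pdk1, chr2:71872974-71873273, plus strand: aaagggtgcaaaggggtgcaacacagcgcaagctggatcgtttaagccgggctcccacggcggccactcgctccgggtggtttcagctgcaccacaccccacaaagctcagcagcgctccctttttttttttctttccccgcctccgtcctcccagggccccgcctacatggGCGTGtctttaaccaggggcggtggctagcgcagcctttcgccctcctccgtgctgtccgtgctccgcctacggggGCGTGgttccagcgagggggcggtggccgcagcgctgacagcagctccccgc
Slc2a1, chr4:119108495-119108794, plus strand: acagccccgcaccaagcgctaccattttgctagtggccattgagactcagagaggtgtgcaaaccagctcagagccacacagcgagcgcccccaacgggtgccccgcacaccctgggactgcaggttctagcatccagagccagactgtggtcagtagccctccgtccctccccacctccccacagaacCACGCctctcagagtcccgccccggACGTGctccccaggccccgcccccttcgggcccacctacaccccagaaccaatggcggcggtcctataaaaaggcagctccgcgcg

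The mean signal was higher in VEGF120 for 11 of the 12 probe sets and lower for 1, the second of Slc2a1. The median difference of the 12 was 0.29 (log2), where the median over all 27022 tested probe sets was 0.04. The differences ran from −0.09 for Slc2a1 to 0.72 for Bnip3. For 6 probe sets, those of Pfkl, Pdk1, Pkm and all 3 of Aldoa, the 4 VEGF120 arrays lay above the 4 wild type arrays without overlap; the same holds for 3.22% of all tested probe sets. None passed the test across the array: limma called 0 of the 12, and 0% of all tested probe sets, at an adjusted p under 0.05, with adjusted p from 0.465 to 0.914 among the members. At an unadjusted limma p under 0.05, 7 of the 12, from 5 genes, were higher in VEGF120, against 6.34% of all tested probe sets (1714, and 2638 in both directions). The unpaired test named in the deposited table also called 0 after adjustment. Since the members were chosen on this contrast, these shares describe the choice and nothing is read from them.

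The scaling moved every value. Centring each array on its median lowers each member by 0.12, and the median of all tested probe sets then lies at −0.08. Relative to the median of all tested probe sets, 11 of the 12 members were higher under the deposited scaling and under quantile normalization. Centring shifts the members and that median alike, so it could not change this count. As deposited, the first probe set of Slc2a1 lay only just above that median, at 0.045 against 0.041. Relative to 0 only 9 were higher after centring, where Ldha and the first probe set of Slc2a1 turned to −0.01 and −0.08. The count of probe sets without overlap was 6 as deposited, 7 after quantile normalization, which added Ldha, and 2 after centring, those of Pfkl and 1 of Aldoa. Over all tested probe sets 1.94% lay higher without overlap after quantile normalization and 1.02% after centring.

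**Figure D1:**
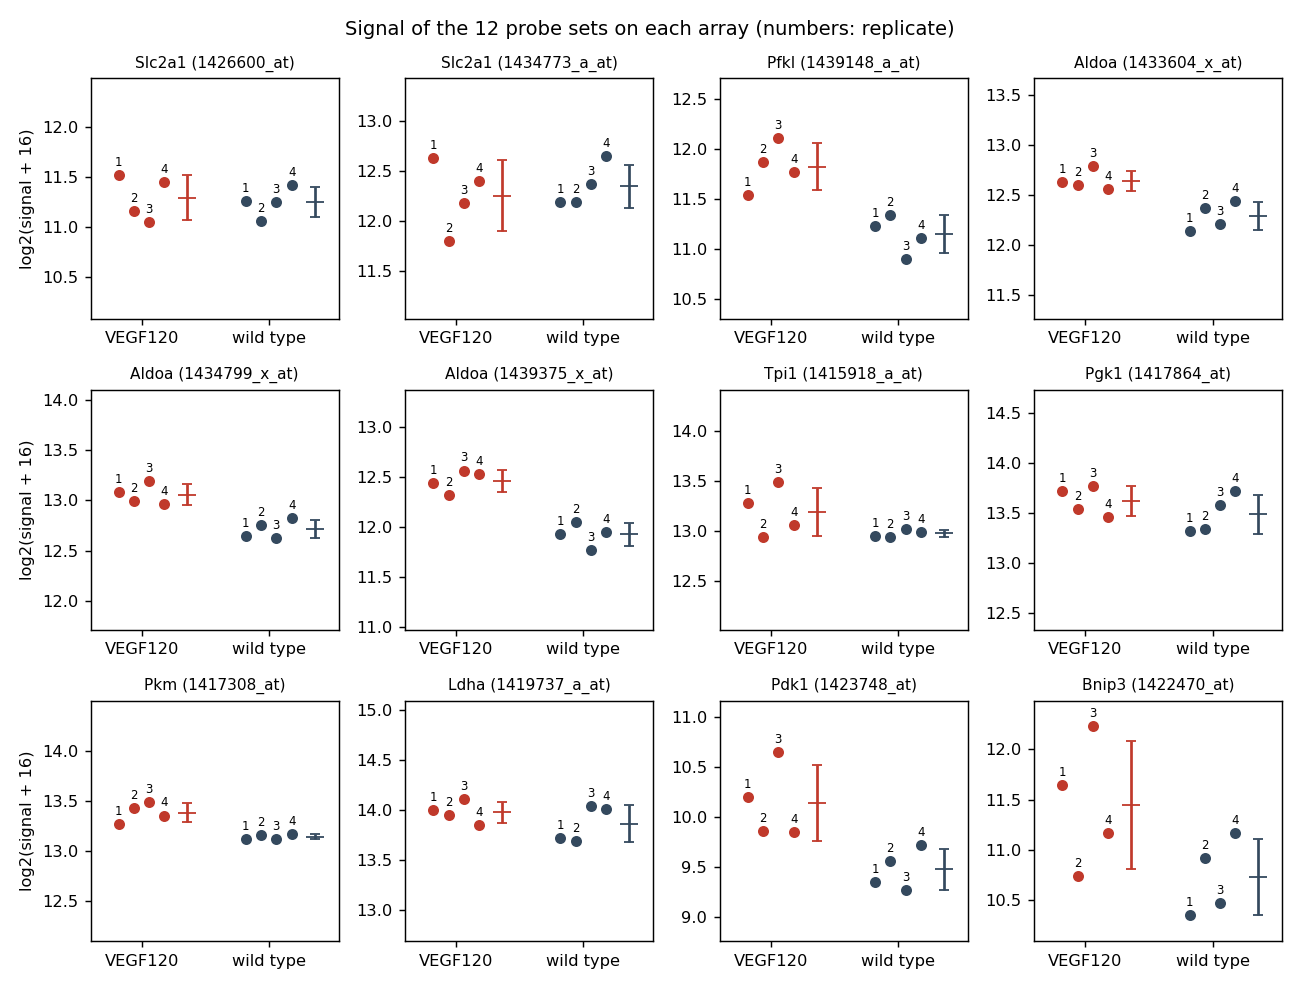
Signal of each of the 12 probe sets as log2(signal + 16) on the y axis, for the 4 VEGF120 arrays (red, left) and the 4 wild type arrays (dark, right), with the replicate number above each point and the mean ± SD beside them; every panel spans the same range. The genotypes are apart for Pfkl, Pdk1, Pkm and Aldoa, and Bnip3 shows the widest spread.

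The first steps were glucose uptake and phosphorylation to the aldolase stage. Slc2a1 encodes GLUT1, the main glucose transporter of the early embryo and the blood-brain barrier. Its probe set 1426600_at read 2932, 2271, 2107 and 2790 on VEGF120 replicates 1 to 4, and 2437, 2128, 2434 and 2734 on wild type replicates 1 to 4. Its probe set 1434773_a_at read 6322, 3563, 4637 and 5400 on the VEGF120 arrays, against 4656, 4645, 5269 and 6395 on the wild type arrays. On both, the genotypes overlapped, and VEGF120 arrays held both the highest or second highest and the lowest reading. The differences were 0.05 ± 0.12 and −0.09 ± 0.16 (log2, limma SE, n = 4 each). Both changed sign when single arrays were left out, the first to −0.03 without VEGF120 replicate 1 and the second to 0.06 without VEGF120 replicate 2, so no direction can be given for Slc2a1.

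Pfkl encodes the liver-type subunit of phosphofructokinase, which commits sugar to glycolysis. Its probe set 1439148_a_at read 2968, 3719, 4409 and 3490 on the VEGF120 arrays, against 2395, 2581, 1896 and 2197 on the wild type arrays. All VEGF120 readings lay above all wild type readings. On the log2 scale this was 11.82 ± 0.24 in VEGF120 and 11.15 ± 0.19 in wild type (SD, n = 4 each). The genotypes were 0.68 ± 0.13 (SE) apart, or 1.60-fold. The authors' deposited table, made with another signal summary (PLIER), gives the same probe set as 1.56-fold, read as higher in VEGF120. Its unpaired test gave an unadjusted p of 0.00575, which is no separate support, since Pfkl was chosen in part from that table. Among the 139 higher probe sets of that deposited table by the authors, Pfkl stands at place 108 by fold and Pdk1 at 121, close to the smallest fold the list admits.

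Aldoa encodes aldolase A, which cleaves fructose bisphosphate. Probe set 1439375_x_at read 5517, 5071, 6027 and 5873 on the VEGF120 arrays, against 3882, 4209, 3479 and 3934 on the wild type arrays. Probe set 1433604_x_at read 6294, 6173, 7046 and 6028 on the VEGF120 arrays, against 4496, 5258, 4725 and 5548 on the wild type arrays. Probe set 1434799_x_at read 8660, 8148, 9367 and 7962 on the VEGF120 arrays, against 6404, 6874, 6311 and 7253 on the wild type arrays. No wild type array reached the lowest VEGF120 array on any of the 3. The differences were 0.53 ± 0.09, 0.35 ± 0.09 and 0.35 ± 0.09 (log2, SE), or 1.45-, 1.28- and 1.27-fold, so the probe sets shared direction while the first gave the larger difference. Their names end in _x, which Affymetrix uses for probe sets with probes that may also match other transcripts, so signal from related sequences may be included. VEGF120 replicate 3 was the highest array on all 3.

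Tpi1 encodes triosephosphate isomerase, which interconverts the products of aldolase. Its probe set 1415918_a_at read 9967, 7893, 11510 and 8525 on the VEGF120 arrays, against 7905, 7887, 8333 and 8147 on the wild type arrays. Of the VEGF120 arrays 3 exceeded all wild type arrays and replicate 2 lay among them. The difference was 0.22 ± 0.11 (log2, SE), and 0.12 without VEGF120 replicate 3.

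The later steps make ATP and pyruvate. Pkm encodes the muscle-type pyruvate kinase, whose M2 form prevails in proliferating embryonic cells; the probe set does not tell isoforms apart here. Its probe set 1417308_at read 9832, 10994, 11424 and 10436 on the VEGF120 arrays, against 8878, 9110, 8886 and 9198 on the wild type arrays. The wild type arrays were close together and all VEGF120 arrays lay above them. The means were 13.38 ± 0.09 in VEGF120 and 13.14 ± 0.03 in wild type (log2, SD, n = 4 each), which are 0.24 ± 0.08 (SE) apart, or 1.18-fold.

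Pgk1 encodes phosphoglycerate kinase, which makes the first ATP of the pathway. Its probe set 1417864_at read 13441, 11863, 13948 and 11233 on the VEGF120 arrays, against 10203, 10319, 12196 and 13486 on the wild type arrays. The ranges overlapped widely, and the difference of 0.13 ± 0.11 (log2, SE) was 0.08 when VEGF120 replicate 3, wild type replicate 1 or wild type replicate 2 was left out, and 0.21 when wild type replicate 4 was.

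Ldha and Pdk1 act on the fate of pyruvate. Ldha encodes the lactate dehydrogenase subunit that favours lactate. Its probe set 1419737_a_at read 16325, 15799, 17576 and 14736 on the VEGF120 arrays, against 13479, 13130, 16821 and 16397 on the wild type arrays. Wild type replicates 3 and 4 lay within the range of the VEGF120 arrays, and the difference was 0.11 ± 0.10 (log2, SE). It was 0.07 without VEGF120 replicate 3 or wild type replicate 1, 0.05 if wild type replicate 2 was left out and 0.17 if wild type replicate 3 was.

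Pdk1 encodes pyruvate dehydrogenase kinase 1, which inactivates pyruvate dehydrogenase and is a classical HIF-1 target. Its probe set 1423748_at read 1161, 918, 1599 and 907 on the VEGF120 arrays, against 640, 741, 603 and 832 on the wild type arrays. The genotypes did not overlap, though VEGF120 replicates 2 and 4 lay close to wild type replicate 4. The means were 10.14 ± 0.38 in VEGF120 and 9.48 ± 0.21 in wild type (log2, SD, n = 4 each). They were 0.66 ± 0.17 (SE) apart, or 1.58-fold, and 0.49 without VEGF120 replicate 3. The authors' deposited table, made with PLIER, gives it as 1.54-fold, read as higher in VEGF120, with an unadjusted p of 0.0350 from its unpaired test. As for Pfkl, this is no separate support.

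Bnip3 encodes an outer mitochondrial membrane protein that marks mitochondria for removal under hypoxia. Its probe set 1422470_at read 3190, 1687, 4796 and 2284 on the VEGF120 arrays, against 1290, 1916, 1398 and 2277 on the wild type arrays. Readings on the VEGF120 arrays spanned a range wider than all wild type readings together, and replicate 2 lay inside the wild type range. The means were 11.45 ± 0.64 in VEGF120 and 10.72 ± 0.38 in wild type (log2, SD, n = 4 each). The difference of 0.72 ± 0.26 (SE), or 1.65-fold, was the largest of the 12 and also the one with the largest error. It was 0.46 without VEGF120 replicate 3 and 0.96 without VEGF120 replicate 2.

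**Figure D2:**
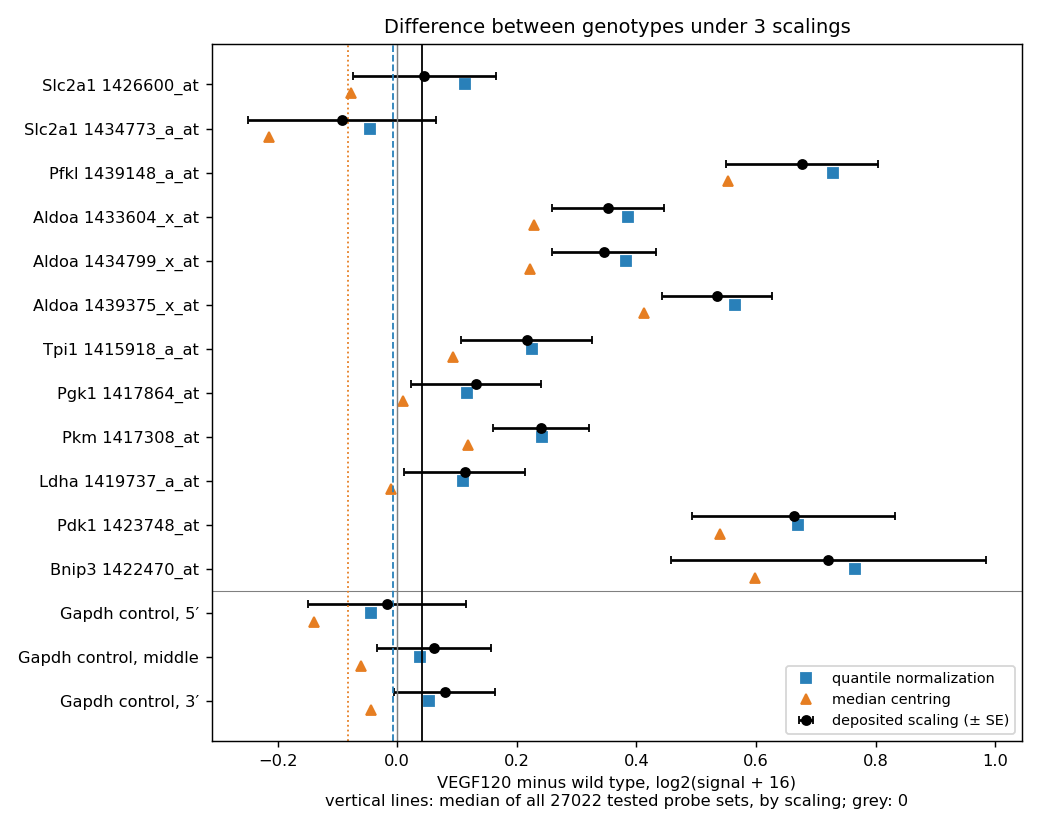
Difference in log2(signal + 16), VEGF120 minus wild type, on the x axis, for the 12 probe sets and below them the 3 Gapdh controls; circles with bars give the deposited scaling ± SE, squares quantile normalization and triangles median centring, and the vertical lines the median of all tested probe sets. Bnip3, Pfkl and Pdk1 lie between 0.54 and 0.77 under every scaling shown, while Slc2a1 and Gapdh lie near the lines.

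Gapdh, the glycolytic enzyme between triosephosphate isomerase and phosphoglycerate kinase, is no member, and the array carries 3 control probe sets along its transcript whose names identify it. It thus offers a reading of the pathway that the choice of members did not use. The 3′ set read 14523, 15099, 15758 and 13867 on the VEGF120 arrays, against 13077, 12588, 15552 and 15023 on the wild type arrays. The middle set differed by 0.06 ± 0.10 (log2, SE), the 3′ set by 0.08 ± 0.08 and the 5′ set by −0.02 ± 0.13. The size of all 3, and the sign of the 5′ set, varied with the array left out. Genotypes overlapped on all 3, with two-sided exact permutation p of 0.629 for the middle, 0.371 for the 3′ and 0.943 for the 5′ set, each 0.943 after Benjamini-Hochberg adjustment over the 3, where the smallest p that 4 against 4 arrays allow is 0.0286. After quantile normalization the exact permutation p, unadjusted, was 0.343 for the middle, 0.0571 for the 3′ and 0.629 for the 5′ set. No difference in Gapdh was detectable with these arrays, which does not show that its levels were equal. As for Ldha, wild type replicates 3 and 4 read higher than replicates 1 and 2 on all 3 sets.

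From the lists of hypoxia response genes and of genes of pyruvate entry to mitochondria, which hold 37 and 15 genes, the deposited table names Pdk1 only. Of these lists and that of glycolysis genes, those that are not members are not analysed here, except Gapdh by its control probe sets.

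Many of the members, though not all, shared an order of the arrays within a genotype. VEGF120 replicate 3 was the highest of all 8 arrays for 10 of the 12 probe sets, all but those of Slc2a1, and its median deviation from the VEGF120 mean was 0.14 (log2). It was the highest array for 12.9% of all tested probe sets. The choice of members, made with the genotype differences known, itself favours a VEGF120 array as the highest. These shares are therefore not alike, and nothing is read from the gap between them. VEGF120 replicate 2 lay below the VEGF120 mean for 10 of the 12 and replicate 4 for 9, where 50% and 44.6% of all tested probe sets did. Pfkl and Pkm had VEGF120 replicate 1 as their lowest VEGF120 array. Among wild type arrays replicate 4 lay above the mean for 11 of the 12, all but Pfkl, with a median deviation of 0.15, and replicate 1 lay below it for 9, where 53.8% of all tested probe sets lay above on replicate 4 and 46.8% below on replicate 1. On VEGF120 replicate 3 Bnip3 lay 0.79 above the VEGF120 mean and Pdk1 0.51, and on VEGF120 replicate 2 Bnip3 lay at −0.71 and Pdk1 at −0.28. On wild type replicate 4 Bnip3 was 0.44 and Pdk1 0.25 above the wild type mean. The second probe set of Slc2a1 lay at 0.37 on VEGF120 replicate 1, −0.45 on VEGF120 replicate 2 and 0.30 on wild type replicate 4. Slc2a1 followed another order, with VEGF120 replicate 1 the highest VEGF120 array on both probe sets and replicates 2 and 3 below the mean. Leaving out an array cannot bring about overlap, so the same 6 probe sets had to stay free of it without VEGF120 replicate 3. Nothing is read from this. Of all tested probe sets 5.02% were then higher without overlap.

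**Figure D3:**
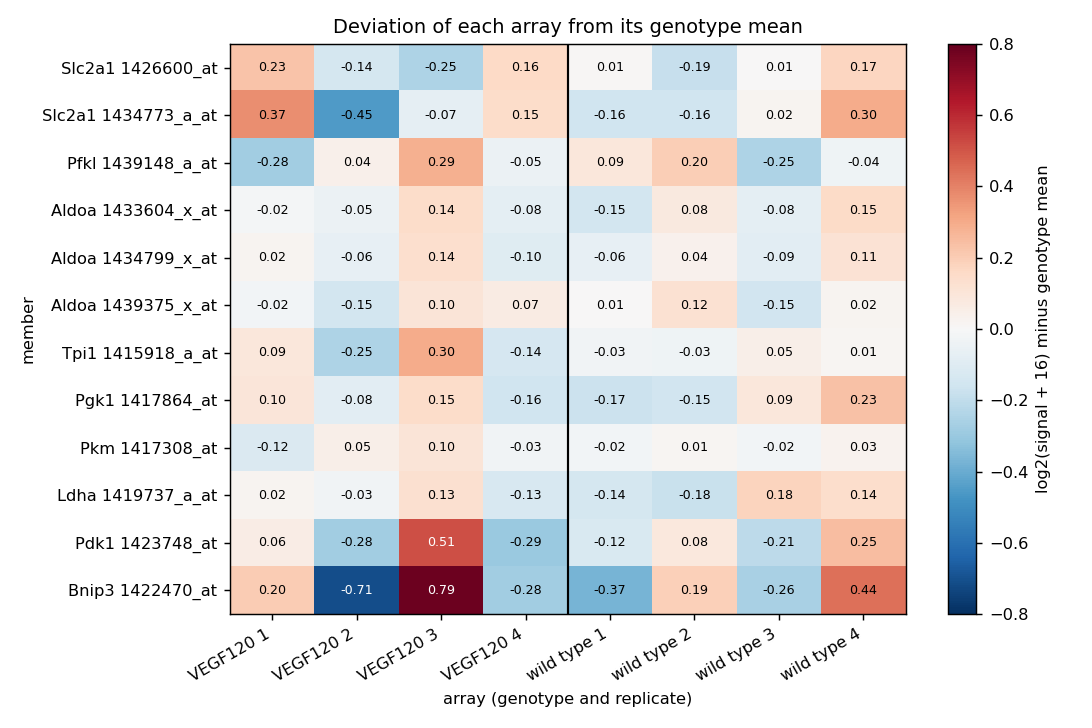
Deviation of each array from the mean of its genotype in log2(signal + 16), for the 12 probe sets (rows) on the 4 VEGF120 and 4 wild type arrays (columns, left and right of the line), as colour and number. VEGF120 replicate 3 and wild type replicate 4 are above their genotype mean for most members, and Slc2a1 runs differently on the VEGF120 arrays.

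Named markers of another tissue were also set beside the members. Alx1, Prrx1 and Six2, homeobox factors on a list of head mesenchyme and neural crest markers, are among the genes the deposited table names, which the study selected on these samples, and all 3 had a higher mean signal in VEGF120. Their summed signal ran from 1122 to 1585 in VEGF120 and from 590.1 to 943 in wild type, without overlap. The sum is weighted towards the probe set with the highest signal, that of Prrx1, and gives no share of transcript. Alx1 by itself overlapped, at 240.2 on VEGF120 replicate 2 and 245 on wild type replicate 2. The other markers of that list are not analysed here. Their part in the member differences was not tested. In whole forebrain a different mix of cells and a different amount of transcript per cell cannot be told apart. No endothelial, erythroid or surface ectoderm marker listed has a named probe set here, and these are not analysed. Sp8, the forebrain marker that the deposited table names, went the other way, at −0.66 (log2, VEGF120 minus wild type).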

How the data were processed

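Per the labels' protocols, total RNA of microdissected forebrain was isolated with a PicoPure kit, biotin-labelled by a 3′ IVT kit and hybridised, 1 array for each sample. The deposited value table holds 1 linear intensity per probe set and array; the submitters' processing notes name MAS5 and Affymetrix Expression Console, with no versions. Each array's 2% trimmed mean equalled 250, and no pair of arrays shared more than 0.0044% of them exactly, so all 8 counted as separate samples. A second deposited table holds the authors' unsigned fold changes (ratios) and unadjusted p-values from PLIER summaries, per the file headers; its group codes were read as VEGF120 over wild type from the title of a deposited enrichment output, and its 12 per-array columns match no sample label and were not used.

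Values were analysed as log2(value + 16), a scale on which changes of dim probe sets are understated. After 64 controls were removed, probe sets whose mean over the 8 arrays lay below the 40th percentile, a signal of 36.9, were left out. All 27022 remaining probe sets entered a limma fit (version 3.58.1, R 4.3.3) of VEGF120 against wild type by lmFit and eBayes with an intensity trend and no replicate block, with Benjamini-Hochberg adjustment and a threshold of 0.05. Gapdh controls were compared by exact permutation. The fit was tested on simulated data. The members and gene lists were chosen with earlier results of these data known. Described are all members, the Gapdh controls, the list genes that the deposited table names, except a few not reported here, and the 5 named probe sets most like the members. Figures were drawn with matplotlib 3.10.9. The alternatives were another added constant (1 or 64), quantile normalization, median centring, another brightness filter (none or the 60th percentile), no intensity trend, the replicate block, the unpaired test named in the deposited table and each array left out in turn. The labels do not say whether same-numbered arrays share more than a number. Their deviations from the genotype means correlated at −0.13, −0.02, 0.11 and −0.06 for replicates 1 to 4, which cannot exclude a shared origin or batch.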

Additional observations from a re-analysis of the deposited data

How the results depend on the processing

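At the adjusted threshold the count stayed at 0 in limma and in the unpaired test under every alternative but 1: with arrays left out it was 0 to 1, and it was 1, a probe set of Bak1 named after its values were seen, when VEGF120 replicate 1 was the array left out. With the replicate block 0 were called and 2358 had an unadjusted p under 0.05, and it changed no other call. Among the fits with an array left out, that unadjusted count was lowest at 1653, with wild type replicate 3 left out, and highest at 3225, with VEGF120 replicate 1 left out. It was 3701 after median centring and 3587 with no brightness filter. Its higher part was 602 after median centring and 1137 with the 60th percentile filter, where fewer were tested. Probe sets without overlap were 2184 in all after median centring, and those higher in VEGF120 were 523 after quantile normalization, 276 after median centring and 535 with the 60th percentile filter. Members without overlap, an alternative chosen after seeing the data, were 2 after median centring and 6 to 8 with an array left out. The latter count could not fall below 6, since leaving out an array cannot bring about overlap. Over all tested probe sets the share higher without overlap was then 4.29% to 7.17%, against 3.22% with all arrays. The share of higher probe sets at an unadjusted p under 0.05 was 65.0% as deposited, 50.6% after quantile normalization and 16.3% after median centring, which subtracts the higher array medians of VEGF120. Of 144 member values under alternatives 133 moved by less than the spread between arrays, 4 moved further and 7 turned. Leaving out 1 of 4 arrays cannot move a difference by more than that spread, and another added constant hardly changes signals this high. The 133 are therefore no measure of stability. The 4 that moved further, of Aldoa and Pkm, did so after median centring. After median centring Ldha turned to −0.0098 and the first Slc2a1 probe set to −0.0775. With an array left out that probe set ran from −0.0306 to 0.127, at −0.00684 without VEGF120 replicate 4 and −0.0168 without wild type replicate 2. The second ran from −0.217 to 0.0580, at 0.00752 without wild type replicate 4. Gapdh after median centring was at −0.140 at the 5′ end, −0.0612 in the middle and −0.0436 at the 3′ end. With an array left out it ran from −0.0805 (wild type replicate 2) to 0.0756 (VEGF120 replicate 4) at the 5′ end, from 0.0196 (wild type replicate 2) to 0.123 (VEGF120 replicate 4) in the middle and from 0.0280 (wild type replicate 2) to 0.130 (wild type replicate 3) at the 3′ end. What caused these shifts was not tested.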

Other observations

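Once genotype means were subtracted, the members' shared pattern over the 8 arrays was compared with that of the 109 named probe sets of the deposited list above the brightness filter, as a description. The most alike was Prrx1, a homeobox factor of head mesenchyme, with a Pearson's r of 0.85, then LOC677213 (0.83), Eri2 (0.71), Lin7c (0.70) and Arf4 (0.68). Prrx1 differed by 0.76 between the genotypes and the other 4 by −0.51 to −0.80 (log2, VEGF120 minus wild type), so a like pattern within genotypes went with either sign between them. Within the members, Bnip3 (0.96), Pdk1 (0.94) and the Aldoa probe set 1434799_x_at (0.88) followed the mean of the probe sets of the other genes most closely. The remaining Aldoa probe sets stood at 0.80 (1433604_x_at) and 0.39 (1439375_x_at). Pfkl (0.17), Pkm (0.28) and both Slc2a1 probe sets (−0.33 and 0.22) followed it least. All these values rest on 8 arrays that share scaling and handling, and no test was made.

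Of 36 groups of 4 arrays examined, for the 12 members, the 3 Gapdh controls and 3 array measures, 0 held an array set far apart from the other 3, where chance gives about 1.8.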
